A study of Homo sapiens with 49 samples.

Results

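Peaks deposited around 7 genes of the insulin-like growth factor (IGF) system were described in 2 estrogen-responsive human cell lines. Ishikawa is a line from an endometrial adenocarcinoma and T-47D is a line from a ductal carcinoma of the breast. The genes were IGFBP2, IGFBP3, IGFBP4, IGFBP5, IGF1R, IRS1 and IGF2, which are 7 of the 20090 protein-coding genes measured. The list was chosen by a measured value: IGFBP4 was known to hold an RNA polymerase II (RNAPII) region gained with 17β-estradiol (E2), so its RNAPII values are given as a description, with no test. Each gene was followed through its window, the GENCODE gene body with 50 kb on each side on hg19, in 45 peak lists, 21 from Ishikawa and 24 from T-47D.

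The IGF system carries a growth signal that is tuned outside the cell. IGF2 is a secreted ligand, the IGF binding proteins (IGFBPs) hold IGFs in the extracellular fluid and set how much reaches the receptor, IGF1R is the receptor tyrosine kinase at the cell surface, and IRS1 is the adaptor that passes the signal of the activated receptor on to phosphoinositide 3-kinase. In breast and endometrium the system is known for its cross-talk with estrogen receptor signalling.

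Chromatin immunoprecipitation with sequencing (ChIP-seq) was carried out on both lines, with hormone-depleted culture before the E2 and DMSO treatments. In each line cells received 10 nM E2 or its vehicle DMSO, for 1 h before JUN, LSD1, MAX, MYC, RARA and TAF1 were precipitated, and for 8 h before the histone marks H3K4me1, H3K4me3 and H3K27me3. RNAPII was precipitated in T-47D only, after 1 h of E2 or DMSO, with 2 libraries per treatment. For the corepressor SIN3A the contrast was full against hormone-stripped medium, and H3K36me3 was taken in Ishikawa in full medium alone. Every other group was 1 library, so that its differences have no replicate check. No source says whether the replicate libraries came from separate cultures, so the p-values measure only the spread between these libraries.

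The lists differed widely in length, and read depth is unknown because only peaks were used here. They ran from 2 peaks (Ishikawa MYC under E2) to 46282 (T-47D RNAPII under E2, replicate 1), and the RNAPII lists of replicate 1 (39371 peaks under DMSO, 46282 under E2) were longer than those of replicate 2 (21291 and 23433). H3K4me3 at start sites, meaning a peak within 250 bp of an annotated start, set the lines apart: EMX2, HOXA11 and PAX8, which mark endometrial cells, had fold enrichments over input of 29.3, 20.3 and 14.5 in Ishikawa under DMSO and no peak in T-47D, whereas SPDEF, a luminal breast factor, had 18.1 in T-47D and none in Ishikawa. FOXA1, ESR1, TRPS1, MECOM and KRT8 had a peak in both lines, and SOX17 had none in Ishikawa under DMSO. GATA3, a luminal breast factor too, had none in Ishikawa under DMSO but 10.0 under E2, and a peak in both T-47D lists. Some H3K27me3 lists went against their label. In T-47D, 98.8% of the H3K27me3 peaks under DMSO overlapped an RNAPII peak and 85.7% an H3K4me3 peak, although H3K27me3 is a repressive mark. Of the 107 H3K27me3 peaks under E2, 0% overlapped RNAPII and 0.935% H3K4me3. Of the Ishikawa H3K27me3 peaks, 81.5% under DMSO and 95.3% under E2 overlapped H3K4me3. The T-47D JUN lists also overlapped RNAPII, with 92.6% of the peaks under DMSO and 92.2% under E2. The overlap to be had from list length alone was not tested. In bulk chromatin, binding in fewer cells and weaker binding in each cell cannot be told apart.

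The windows were filled unevenly. IGF1R held 81 peaks over the Ishikawa lists and 163 over the T-47D lists, IGFBP4 held 72 and 109, and IGF2 held 12 and 12, where the median over all genes was 23 and 27. The IGF1R window is also the longest, 415992 bp against 109630 bp for IGFBP3. IGFBP2 and IGFBP5 face each other with 7668 bp between their ends, so that their windows share 92332 bp, 70.2% of the IGFBP2 window and 74.8% of the IGFBP5 window. Their values are therefore not independent. Other genes lie in the windows too: TOP2A and TNS4 beside IGFBP4, IGFBP1 beside IGFBP3, RHBDD1 beside IRS1, and INS and TH beside IGF2.

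**Figure D1:**
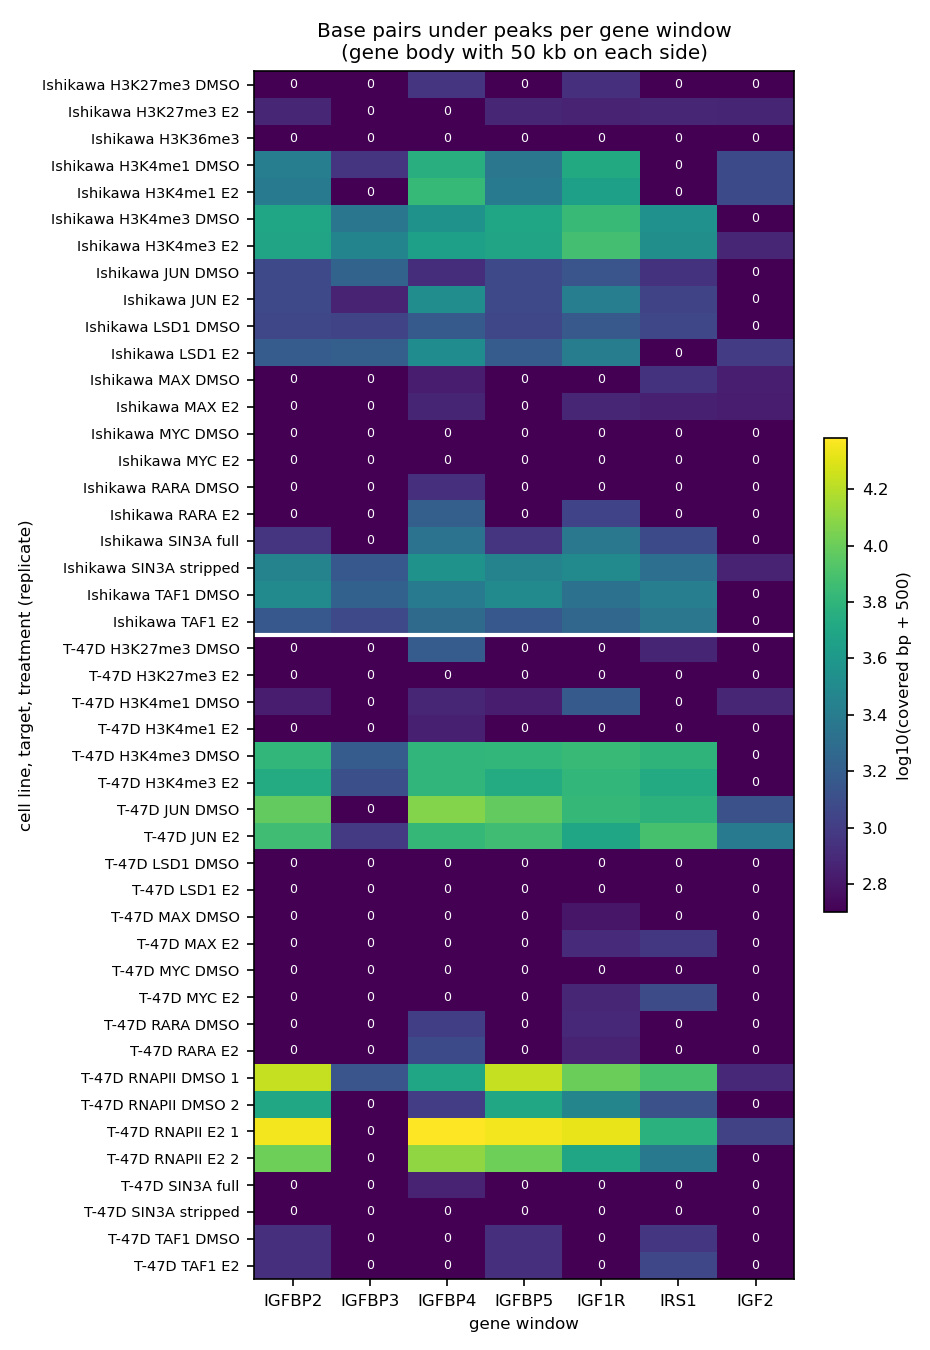
Base pairs under deposited peaks in each gene window (columns) for each of the 45 lists (rows), shown as log10(bp + 500), with 0 printed where a list had no peak and a white line between the cell lines. The brightest cells are T-47D RNAPII at IGFBP4, IGFBP2, IGFBP5 and IGF1R, while IGFBP3 and IGF2 are at 0 in most T-47D lists.

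Among the binding proteins, IGFBP4 was the one whose polymerase coverage separated by treatment, and all 7 windows had RNAPII in at least 1 library. IGFBP4 is a binding protein that the protease pregnancy-associated plasma protein A (PAPPA) cleaves to release IGFs. Its gene lies on the plus strand of chromosome 17 (chr17:38599702-38613977). RNAPII peaks covered 4375 bp and 509 bp of its window in the DMSO libraries and 23631 bp and 12158 bp in the E2 libraries. Both E2 libraries were above both DMSO libraries, and the mean difference was 2.98 on the log2(bp + 500) scale. Of the 17100 windows with RNAPII in any library, 2.04% had both E2 libraries above both DMSO libraries, and 0.0819% had a difference as large as that of IGFBP4. The median over these windows was -0.13. IGFBP4 was chosen with a gained RNAPII region known, so these shares describe it and test nothing.

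The added polymerase lay over the gene and past its 3′ end. RNAPII peaks covered 4.93% and 0% of the IGFBP4 gene body in the DMSO libraries, and 67.1% and 33.2% in the E2 libraries. In the 10 kb past the gene's end they covered 1478 bp and 0 bp under DMSO, and 9116 bp and 6818 bp under E2. At the start site the order was different. The fold enrichment there was 30.5 and 0 in the DMSO libraries and 15.6 and 13.9 in the E2 libraries, so that the highest value belonged to a DMSO library. From 50 to 5 kb upstream of the start, a stretch that holds the TOP2A promoter, coverage was 993 bp and 509 bp under DMSO and 558 bp and 476 bp under E2. From 25 to 64 kb past the start, toward TNS4, coverage was 611 bp and 0 bp under DMSO and 3498 bp and 0 bp under E2. In both of these flanking stretches the treatments overlapped, whereas over the gene and the 10 kb past it they did not.

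Regions found in both E2 lists and in neither DMSO list were counted as gained. The IGFBP4 window held 6, and 49 of the 17100 windows held at least as many, with GREB1, a classical estrogen target, holding the most at 61. One or more gained regions lay in 5.04% of all windows, and 1 or more lost regions in 1.77%. Among the 7 genes 4 had a gained region and none a lost one, with 8 distinct gained regions in all, but this count rests in part on the choice of IGFBP4 and on the overlap of IGFBP2 with IGFBP5. The strongest IGFBP4 region, chr17:38620014-38621601, was intergenic, 6037 bp past the gene, and reached 29.6-fold and 22.8-fold over input under E2. The widest, chr17:38602905-38605615, was 2711 bp wide, was placed in an intron and reached 22.7 and 13.2. Another covered a coding exon (chr17:38609764-38611242, 12.4 and 8.24), and the other 3 were intergenic between chr17:38621851 and chr17:38624024. The count at IGFBP4 was 22 without E2 replicate 2, 12 without E2 replicate 1, 8 without DMSO replicate 1 and 6 without DMSO replicate 2.

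The sequences below give 300 bp about the summit of 2 gained IGFBP4 regions, the strongest and the widest. They are taken in the first E2 library, on the plus strand of hg19, and are shown as examples of the 6 gained regions. Together the 6 regions spanned 7527 bp, less than RNAPII covered of the window in either E2 library. Capitals mark matches to 3 motifs, all read on both strands: the palindromic estrogen response element GGTCANNNTGACC, the AP-1 motif TGANTCA and the E-box CACGTG.
IGFBP4 downstream, chr17:38620048-38620347: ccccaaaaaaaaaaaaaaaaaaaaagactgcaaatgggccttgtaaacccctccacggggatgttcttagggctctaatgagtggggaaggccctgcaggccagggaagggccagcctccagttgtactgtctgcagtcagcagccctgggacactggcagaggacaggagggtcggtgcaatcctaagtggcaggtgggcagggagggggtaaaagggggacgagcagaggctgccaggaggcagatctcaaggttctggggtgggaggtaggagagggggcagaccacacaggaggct
IGFBP4 intron, chr17:38604960-38605259: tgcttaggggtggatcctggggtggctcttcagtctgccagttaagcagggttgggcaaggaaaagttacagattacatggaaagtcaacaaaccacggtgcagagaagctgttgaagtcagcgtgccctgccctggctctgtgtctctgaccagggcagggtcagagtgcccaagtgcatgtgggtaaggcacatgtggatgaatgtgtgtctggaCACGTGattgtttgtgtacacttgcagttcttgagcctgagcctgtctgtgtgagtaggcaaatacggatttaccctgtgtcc
In the first E2 library none of the 6 gained summits at IGFBP4 held the full estrogen response element or the AP-1 motif within these 300 bp. Over all summits of that list, 0.307% held the former and 8.32% the latter. The intron region held 1 E-box (chr17:38605177-38605182), a motif found about 7.95% of the summits of the list. The same E-box lay 19 bp from the summit of a T-47D SIN3A peak listed in full medium (fold enrichment 9.57) and not in stripped medium. These SIN3A lists were short, with 649 peaks in full and 75 in stripped medium, so the absence says little. Of the summits in the full-medium list, 25.1% held an E-box.

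**Figure D2:**
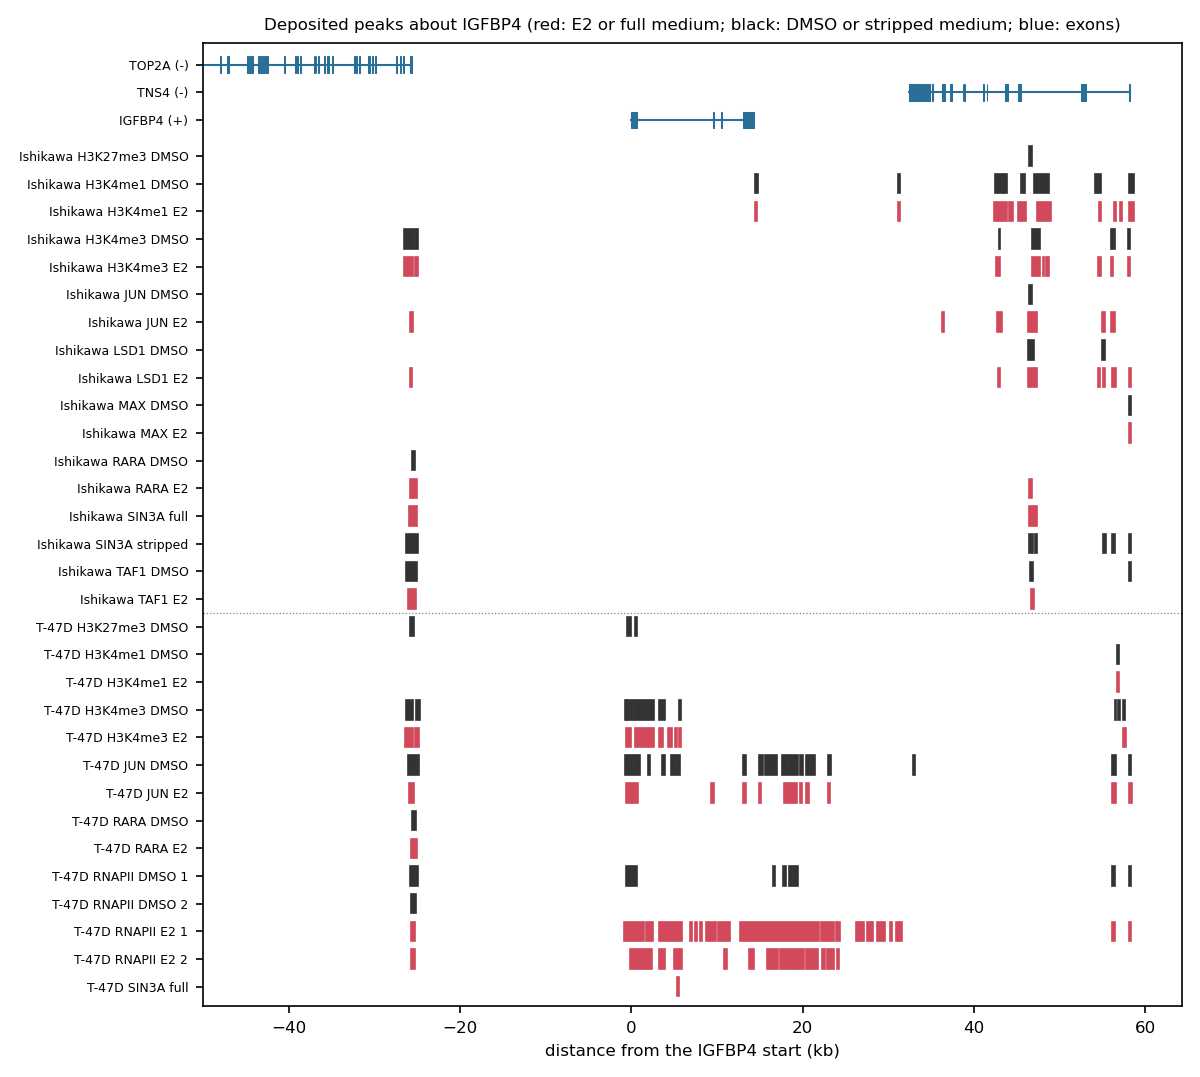
Deposited peaks in the IGFBP4 window by distance from the IGFBP4 start in kb, 1 row per list with any peak, red for E2 or full medium, black for DMSO or stripped medium, blue for exons of IGFBP4, TNS4 and TOP2A. In T-47D the red RNAPII rows fill much of the stretch from the start to 25 kb, where they cover 19575 bp and 11682 bp against 2771 bp and 0 bp in the black rows, and the Ishikawa rows are empty over the gene.

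The lines differed at the IGFBP4 start itself. In T-47D 8 of 24 lists had a peak within 250 bp of the start, among them H3K4me3 at 8.52 under DMSO and 7.96 under E2, whereas none of the 21 Ishikawa lists did. JUN, a subunit of the AP-1 transcription factor, was listed at the T-47D start with 11.2 under DMSO and 18.3 under E2. Its covered length over the T-47D window was 11290 bp under DMSO and 6144 bp under E2, a log2 difference of -0.83. JUN peaks overlapped 3 of the 6 gained RNAPII regions under DMSO and 2 under E2. Over the genome they overlapped 26.9% and 13.6% of the 934 gained regions. The part of the overlap between the JUN and RNAPII lists in these counts was not tested.

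In Ishikawa no list had a peak within the IGFBP4 gene body, and most peaks of the window lay at TOP2A and in TNS4, a gene of focal adhesions. H3K4me1 had a peak just past the IGFBP4 3′ end, at 9.92 under DMSO and 7.52 under E2, and another between IGFBP4 and TNS4 in both lists. A region in a TNS4 intron, chr17:38645984-38648685, held peaks of 14 Ishikawa lists and no T-47D list. The T-47D lists of SIN3A (75 and 649 peaks) and of the demethylase LSD1 (42 and 442) were short, so their absence says little. In Ishikawa SIN3A reached 22.4 in this region in full medium, JUN 6.04 under DMSO and 21.0 under E2, and LSD1 12.7 under DMSO and 16.7 under E2. Over the whole window JUN covered 325 bp under DMSO and 2867 bp under E2 (log2 difference 2.03), and LSD1 990 bp and 2773 bp (1.14). Such rises were common in these lists. Of the windows with a JUN peak in either Ishikawa list, 65.7% were higher by 2-fold or more under E2, and for LSD1 40.3% were, as the lists grew from 3768 to 18311 and from 8618 to 18384 peaks. With both lists shortened to the shorter one by p-value, the differences at IGFBP4 fell under 2-fold, to 0.90 and 0.44. Within 10 kb of IGFBP4 the JUN and LSD1 lists were at 0 bp in both treatments.

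IGFBP2 and IGFBP5 are read together because the same peaks fill most of both windows. IGFBP2 binds IGF2 with high affinity, and IGFBP5 is the most conserved member of the family. RNAPII covered 16707 bp and 4615 bp of either window under DMSO, and 22177 bp and 9787 bp under E2. The treatments overlapped, with the first DMSO library above the second E2 library, and the difference of 0.70 was smaller than the gap between the DMSO libraries, 1.75 (two-sided exact permutation test, p = 0.667, where 2 against 2 libraries cannot go below 0.333). A difference at least as large was seen in 2.64% of all windows. By number, the E2 library was above the DMSO library of the same number in both cases. The same held at IGFBP4 and IGF1R but not at IGFBP3, IRS1 or IGF2. For IGFBP2 and IGFBP5 the exact sign-flip p was 0.500, the smallest that 2 pairs allow. Libraries of a pair are known to share only a number.

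In every library more of this coverage lay within IGFBP5 (chr2:217536828-217560272, minus strand) than within IGFBP2. RNAPII peaks covered 49.3% and 9.84% of the IGFBP5 gene body in the DMSO libraries, and 74.3% and 29.3% in the E2 libraries. In IGFBP2 (chr2:217497551-217529159, plus strand) the shares were 4.85% and 1.92% under DMSO, and 2.57% and 1.28% under E2, so within the gene body alone the difference pointed down, -0.46 (two-sided exact permutation test, p = 0.667). The start-site fold enrichment of IGFBP5 was 62.4 and 21.2 under DMSO and 40.7 and 24.1 under E2. That of IGFBP2 was 56.1 and 11.2 under DMSO and 19.5 and 10.0 under E2. The 1 gained region of the pair lay in an IGFBP5 intron (chr2:217558428-217558770), with fold enrichments of 12.1 and 13.6 under E2.

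Both starts carried H3K4me3 in both lines. At IGFBP2 the DMSO and E2 lists gave 20.1 and 32.1 in Ishikawa and 11.8 and 12.5 in T-47D. At IGFBP5 they gave 16.5 and 15.7 in Ishikawa and 17.7 and 16.4 in T-47D. Away from the starts, the region shared most widely was intergenic, between the ends of the genes (chr2:217529376-217530831), with peaks of 18 lists, 12 from Ishikawa and 6 from T-47D. JUN reached 15.9 under DMSO and 23.2 under E2 in Ishikawa there, LSD1 14.1 and 16.1, and TAF1, a subunit of the general transcription factor TFIID, 13.9 and 7.82. In T-47D JUN was at 21.8 under DMSO and 10.2 under E2, the opposite direction with 1 library per treatment. Its summit sequence in the Ishikawa JUN list under E2 is shown because it is the strongest factor-bound site of the pair in that line.
IGFBP2 and IGFBP5 intergenic, chr2:217529993-217530292: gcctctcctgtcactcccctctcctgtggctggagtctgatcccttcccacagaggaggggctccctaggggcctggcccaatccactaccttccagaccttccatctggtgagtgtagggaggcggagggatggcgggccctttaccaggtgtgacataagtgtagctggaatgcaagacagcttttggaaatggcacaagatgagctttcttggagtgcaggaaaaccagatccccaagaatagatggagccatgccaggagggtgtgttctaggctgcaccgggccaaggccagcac
It held none of the 3 motifs, while 20.1% of the summits in that list held the AP-1 motif.

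**Figure D3:**
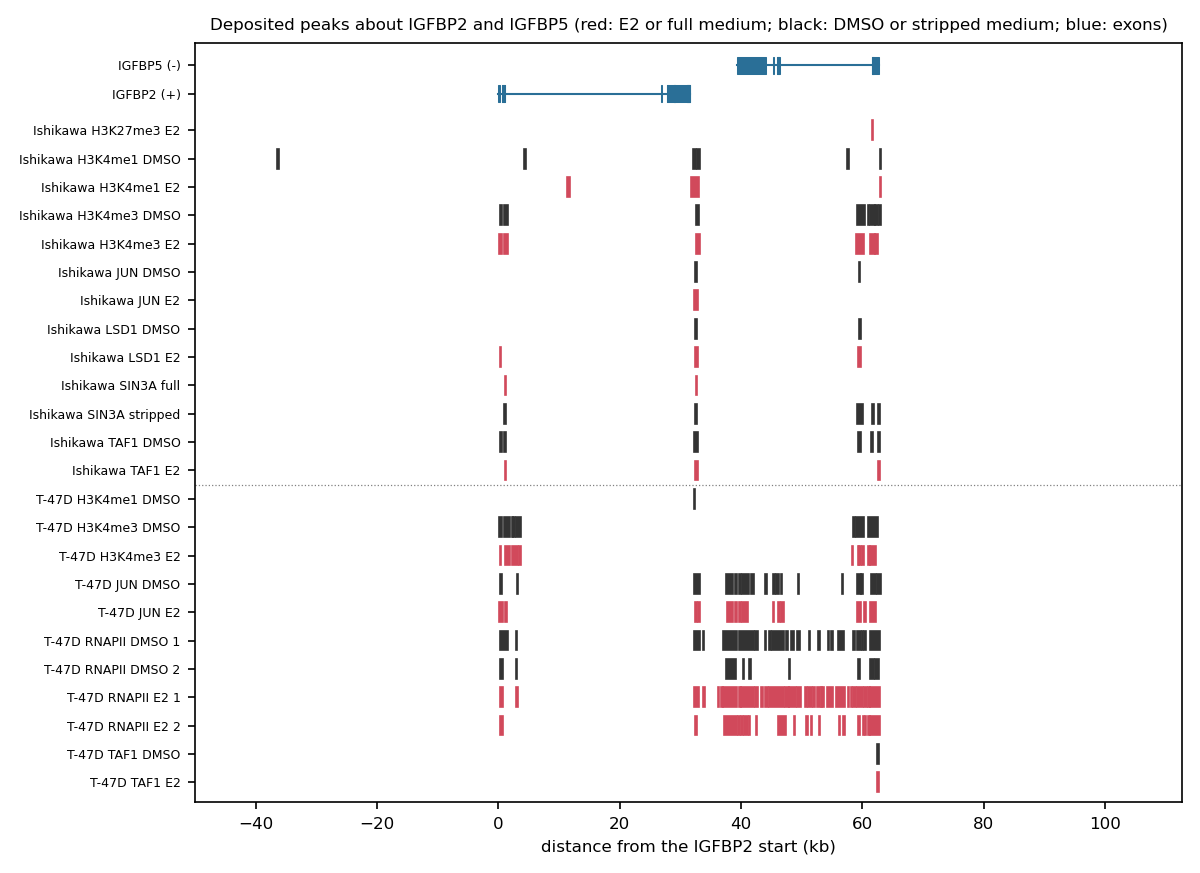
Deposited peaks across the IGFBP2 and IGFBP5 windows by distance from the IGFBP2 start in kb, 1 row per list with any peak, red for E2 or full medium, black for DMSO or stripped medium, blue for exons. RNAPII rows are dense over IGFBP5 and sparse inside IGFBP2, in both treatments.

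TAF1 and SIN3A were lower at this pair in the second Ishikawa list of each comparison. TAF1 covered 2667 bp under DMSO and 944 bp under E2 (log2 difference -1.13). Only 2.36% of the windows tested for TAF1 were lower by 2-fold or more, and with lists of equal length the difference was -0.93, short of 2-fold. SIN3A covered 2315 bp in stripped medium and 394 bp in full medium (-1.65), where 20.4% of windows were lower by 2-fold or more. With lists of equal length the SIN3A difference was -1.46, and within 10 kb of IGFBP2 it was -0.40, against -1.76 within 10 kb of IGFBP5.

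IGFBP3, the main IGF carrier in serum, was nearly without RNAPII in T-47D. Coverage was 883 bp and 0 bp under DMSO and 0 bp in both E2 libraries (log2 difference -0.73, two-sided exact permutation test, p = 1.000), and 592 bp of it lay in the IGFBP3 gene body (chr7:45951844-45961473, minus strand). Its start had H3K4me3 at 12.3 under DMSO and 22.3 under E2 in Ishikawa. In T-47D there was no H3K4me3 peak within 250 bp of a start, but within 1 kb the DMSO list had 2, the higher at 7.84, and the E2 list none. TAF1 at the Ishikawa start was 20.1 under DMSO and 13.4 under E2.

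In Ishikawa JUN was listed at different places of IGFBP3 in the 2 treatments. Under DMSO it had 2 peaks over an annotated untranslated exon (chr7:45952119-45952745 and chr7:45952798-45953414), with fold enrichments of 14.2 and 12.8, and none at the start. Under E2 both were absent from the list and 1 peak at the start reached 8.83. LSD1 followed the same places, with 8.54 and 7.70 at the 3′ peaks under DMSO and 11.2 at the start under E2. The JUN covered length was 1215 bp under DMSO and 225 bp under E2 (log2 difference -1.24), and 0.0365% of the windows tested for JUN, 5 in all, were lower by 2-fold or more. With lists of equal length the difference was -1.78. SIN3A covered 958 bp in stripped medium and none in full medium, but with lists of equal length both were at 0.

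IGF2 (chr11:2150342-2179621, minus strand) had neither a start-site peak in any of the 45 lists nor RNAPII in its gene body in any library. Over its window RNAPII covered 279 bp and 0 bp under DMSO and 575 bp and 0 bp under E2 (log2 difference 0.23, two-sided exact permutation test, p = 1.000), none of it within the gene or the 10 kb past its end. The busiest region lay at chr11:2223106-2224080, in intergenic sequence on the far side of TH, with peaks of 11 lists, 6 from Ishikawa and 5 from T-47D. JUN reached 16.7 under DMSO and 17.5 under E2 in T-47D there, and MAX, the partner of MYC, 9.44 and 8.24 in Ishikawa. The summit of the Ishikawa MAX peak under DMSO is printed because the E-box is the sequence MAX is known to bind.
IGF2 upstream, chr11:2223677-2223976: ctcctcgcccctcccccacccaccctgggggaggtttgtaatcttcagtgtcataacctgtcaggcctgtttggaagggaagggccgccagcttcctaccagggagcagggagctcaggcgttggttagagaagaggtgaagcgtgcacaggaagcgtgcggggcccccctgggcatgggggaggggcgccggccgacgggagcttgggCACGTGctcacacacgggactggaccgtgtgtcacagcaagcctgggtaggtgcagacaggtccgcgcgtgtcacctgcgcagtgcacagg
The E-box lay 62 bp from this summit, and 34.9% of the summits in the list held one.

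The receptor gene IGF1R (chr15:99191768-99507759, plus strand) was covered by RNAPII over 9540 bp and 2399 bp of its window under DMSO, and 20630 bp and 4428 bp under E2. The groups overlapped, since the first DMSO library was above the second E2 library. The log2 difference was 0.92, against a gap of 1.79 between the DMSO libraries and a wider one between the E2 libraries (two-sided exact permutation test, p = 0.667), and 1.66% of all windows had a difference at least as large. Much of it came from 1 library: from 5 to 150 kb past the start, coverage was 1219 bp and 0 bp under DMSO and 10481 bp and 822 bp under E2, in 38 and 2 peaks under E2. The 1 gained region lay in an intron in this stretch (chr15:99295123-99295597, 10.7 and 9.19). At the start the fold enrichment was 30.3 and 0 under DMSO and 24.9 and 7.63 under E2. H3K4me3 there was 16.0 and 21.3 in Ishikawa and 15.3 and 12.7 in T-47D, under DMSO and E2.

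Some introns of IGF1R had peaks in the lists of one line and none in the other. At chr15:99319695-99321192 peaks of 15 Ishikawa lists met, and no T-47D list had a peak. SIN3A was at 30.5 there in stripped and 17.4 in full medium, LSD1 at 12.5 and 28.3, and JUN at 11.5 and 26.1, under DMSO and E2. In T-47D the SIN3A lists held only 75 and 649 peaks and the LSD1 lists 42 and 442, so their absence says little. The T-47D JUN lists were long, with 28703 and 24885 peaks. At chr15:99408484-99409795 the reverse held: 10 T-47D lists and no Ishikawa list had a peak, with MAX at 8.11 under DMSO and 11.8 under E2, JUN at 16.5 and 23.3, and RNAPII in all 4 libraries. A region at chr15:99270660-99271290 was shared, by 10 Ishikawa and 5 T-47D lists, with JUN under E2 at 29.9 in the former and 24.5 in the latter. Of the 74 distinct regions of the window, 8 had Ishikawa peaks alone, 61 T-47D peaks alone and 5 both. RNAPII was taken in T-47D only, and without its lists there were 31 regions, 8 with Ishikawa peaks alone, 16 with T-47D peaks alone and 7 with both.
IGF1R intron, Ishikawa SIN3A, chr15:99320158-99320457: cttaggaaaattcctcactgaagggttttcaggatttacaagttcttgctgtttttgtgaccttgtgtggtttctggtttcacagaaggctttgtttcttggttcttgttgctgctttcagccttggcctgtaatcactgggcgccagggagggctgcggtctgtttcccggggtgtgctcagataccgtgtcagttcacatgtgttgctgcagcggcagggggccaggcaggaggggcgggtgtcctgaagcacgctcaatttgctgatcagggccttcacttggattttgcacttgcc
IGF1R intron, T-47D MAX, chr15:99408572-99408871: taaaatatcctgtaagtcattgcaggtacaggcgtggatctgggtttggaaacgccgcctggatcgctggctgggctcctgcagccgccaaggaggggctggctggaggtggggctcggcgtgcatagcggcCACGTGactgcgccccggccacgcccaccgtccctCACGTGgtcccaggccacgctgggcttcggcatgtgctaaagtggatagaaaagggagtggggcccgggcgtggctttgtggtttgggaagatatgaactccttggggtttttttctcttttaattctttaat
These are the summits of these 2 intronic regions, shown so that they can be compared. The T-47D summit held 2 E-boxes, 15 and 20 bp from the MAX summit, where 33.0% of the summits in that MAX list held at least 1. The Ishikawa summit held none of the 3 motifs, and 10.4% of the summits in its SIN3A list held an E-box.

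**Figure D4:**
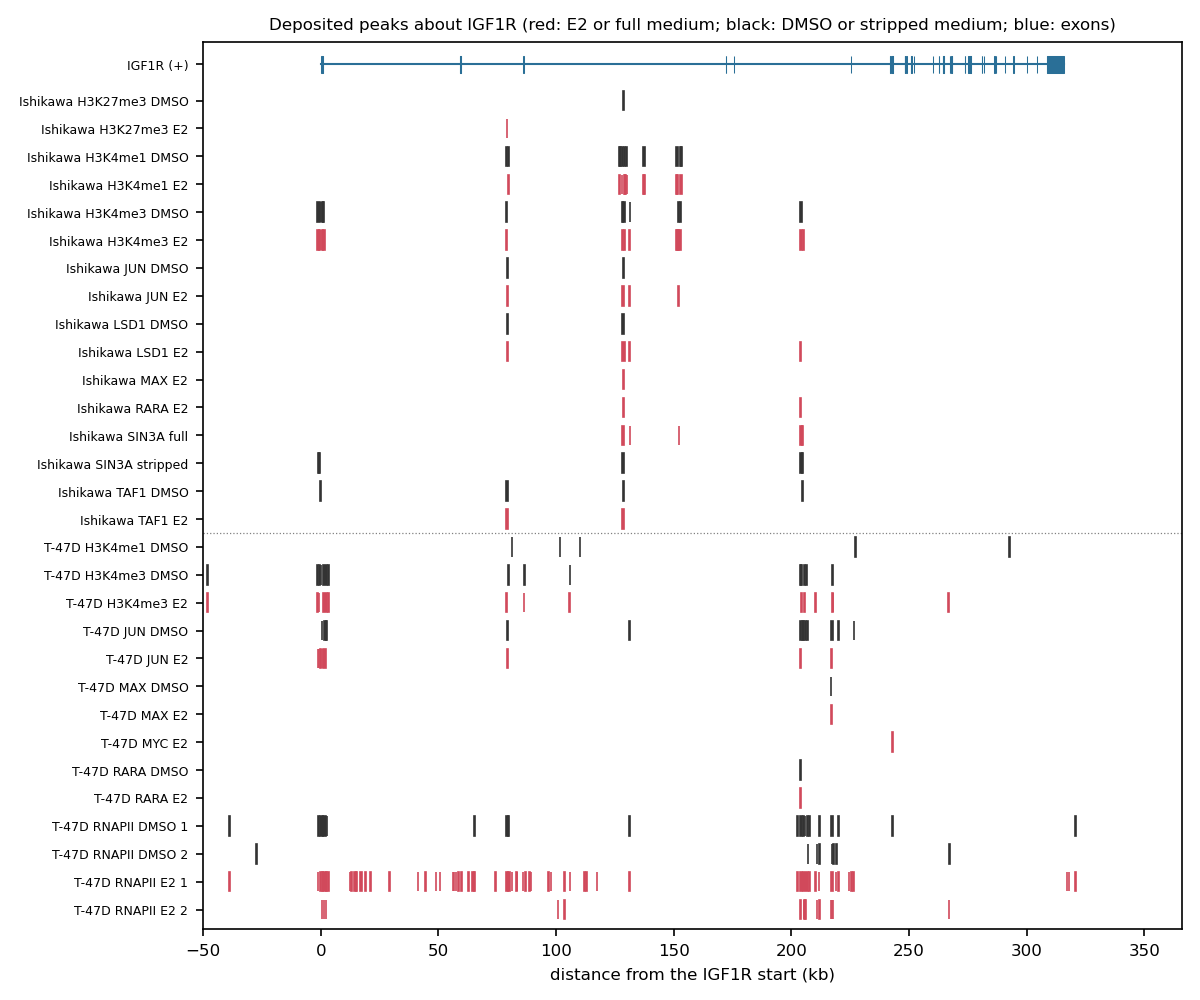
Deposited peaks in the IGF1R window by distance from the IGF1R start in kb, 1 row per list with any peak, red for E2 or full medium, black for DMSO or stripped medium, blue for exons. A column of peaks from 15 Ishikawa lists has no T-47D counterpart. From 5 to 150 kb the first T-47D E2 library has 38 RNAPII peaks, against 2 in the second and 4 and 0 in the DMSO libraries.

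In the other lists 2 IGF1R differences passed 2-fold. RARA, a retinoic acid receptor, went from 0 bp under DMSO to 595 bp under E2 in Ishikawa, where 29% of the windows tested were higher by 2-fold or more and the list grew from 137 to 2883 peaks. H3K4me1 in T-47D went from 1004 bp to 0 bp, where 22.7% of windows were lower and the list shrank from 6408 to 1960 peaks. With lists of equal length both lists of each pair were at 0 in this window.

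IRS1 (chr2:227596028-227664536, minus strand) had RNAPII over 7359 bp and 814 bp of its window under DMSO, and 5480 bp and 1882 bp under E2. The difference of 0.23 was within the gap between libraries (two-sided exact permutation test, p = 1.000). The highest peak of the window, with fold enrichments of 79.5 and 17.0 under DMSO and 41.6 and 26.1 under E2, lay at the RHBDD1 promoter. Within the IRS1 gene body coverage was 5587 bp and 0 bp under DMSO, and 4211 bp and 848 bp under E2. H3K4me3 at the start was 22.5 and 27.8 in Ishikawa and 15.0 and 13.4 in T-47D.

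A site 43182 bp past the 3′ end of IRS1 (chr2:227552199-227552846) had LSD1 and JUN peaks in the Ishikawa lists under DMSO alone, with 1 library per treatment. LSD1 was at 15.0 and JUN at 11.7 there, and neither had a peak under E2. Since it held the only LSD1 peak of the window, LSD1 coverage went from 648 bp to 0 bp (log2 difference -1.20), as it did with lists of equal length. The site lies outside 10 kb flanks, and 0.685% of the windows tested for LSD1 were lower by 2-fold or more. Its sequence is given because both factors were listed there under DMSO alone.
IRS1 downstream, chr2:227552432-227552731: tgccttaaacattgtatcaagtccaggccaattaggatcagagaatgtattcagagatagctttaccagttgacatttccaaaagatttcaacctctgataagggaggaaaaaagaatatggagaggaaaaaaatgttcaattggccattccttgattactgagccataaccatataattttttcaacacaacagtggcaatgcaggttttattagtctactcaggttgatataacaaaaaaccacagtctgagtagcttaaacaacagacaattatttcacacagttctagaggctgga
It held none of the 3 motifs, and 18.5% of the summits in that LSD1 list held the AP-1 motif. In T-47D, MYC went from 0 bp to 721 bp in the IRS1 window, where 19.1% of the windows tested were higher by 2-fold or more. The MYC peak lay at the RHBDD1 promoter, and with lists of equal length both were at 0.

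**Figure D5:**
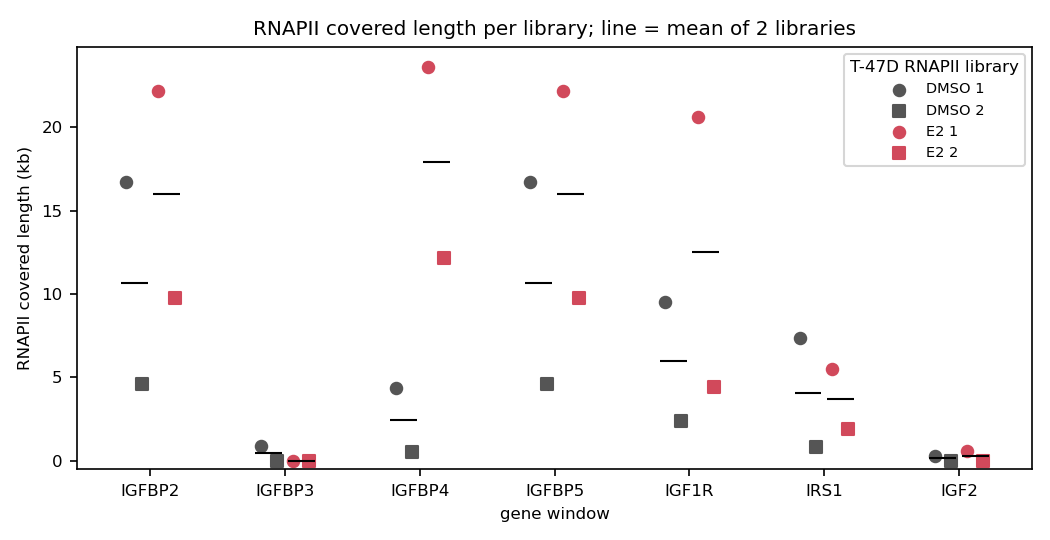
RNAPII covered length in kb for each gene window in the 4 T-47D libraries, grey for DMSO and red for E2, circles for replicate 1 and squares for replicate 2, with a line at the mean of the 2 libraries of a treatment. IGFBP4 is the window where both red points lie above both grey points. IGFBP2 and IGFBP5 show the same values because their windows share their peaks.

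In the order of mean coverage under E2 the windows ran IGFBP4, IGFBP2 with IGFBP5, IGF1R, IRS1, IGF2 and IGFBP3. Neighbours in this order overlapped in their E2 libraries except IRS1 and IGF2, whose E2 values were 5480 bp and 1882 bp against 575 bp and 0 bp. Both E2 libraries lay below both DMSO libraries in none of the 7 windows, and in 4.81% of all windows.

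H3K4me3, which marks active promoters, was found at a start of 5 of the 7 genes in each line under DMSO. Over all genes 67.4% had such a peak in Ishikawa and 62.1% in T-47D. The 5 genes were not the same: within 250 bp IGFBP3 had a peak in Ishikawa and not in T-47D, IGFBP4 the reverse, and IGF2 none in either. Within 1 kb of a start, IGFBP3 had a T-47D peak too, which made 6 genes in T-47D, and IGFBP4 still had none in Ishikawa. No window changed by 2-fold in H3K4me3 coverage between DMSO and E2, and over all windows tested 0.22% did in Ishikawa and 0.672% in T-47D. JUN changed by 2-fold in no window of the 7 in T-47D, and in 3.11% of all windows. H3K27me3 in T-47D went from 1054 bp to 0 bp at IGFBP4, where 54% of windows were lower by 2-fold or more, with 6305 peaks under DMSO and 107 under E2, and at equal list length both were at 0.

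Other genes of the pathway were read from a list of 31. RNAPII was found in 28 of their windows. Both E2 libraries were above both DMSO libraries for STC2 alone, which encodes stanniocalcin 2, an inhibitor of PAPPA. Its window was covered over 8527 bp and 3423 bp under DMSO and over 16656 bp and 15025 bp under E2, with 2 gained regions. FOXO3, a transcription factor downstream of AKT, had 1 gained region, and SHC1 and MTOR had 1 lost region each. H3K4me3 marked a start of 24 of the 31 genes in the DMSO list of Ishikawa and of 21 in that of T-47D.

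The profile of each window over the 45 lists was compared with those of all genes by the Pearson correlation of log2(bp + 500), each list centred on its mean, as a description. The 45 points share lines, libraries and list lengths. The genes most like IGFBP4 were RAB17 (0.82), NECAB2 (0.81) and UHRF1 (0.79). Those most like IGF1R were PRKCE (0.88), FAM166B (0.85) and CSRNP1 (0.84). PTHLH (0.86) was most like IGFBP3, DHTKD1 (0.81) most like IRS1 and CRYBB3 (0.91) most like IGF2. Among the 7 windows themselves, IGFBP4 was most like IGF1R (0.79), and IGFBP3 was negatively correlated with IGFBP2 (-0.60).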

How the data were processed

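ChIP-seq peaks were read from 45 lists, 1 per library, and 4 input samples had no list used here. Per the sources, the authors aligned reads to hg19 with Bowtie 1.1.2 and called peaks in each library against input with MACS2 2.1.0.20140616, without pooling replicates. The deposited values were a display score, the fold enrichment (a ratio to input), and for each peak its -log10 p-value with a matching -log10 q-value. The smallest deposited -log10 p-value was 10.0. Because the lists hold peaks that passed a threshold, no read counts enter, a weak site can be absent from a list, and longer lists cover more of each window.

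Windows were the GENCODE 44 gene body (hg19 mapping) with 50 kb on each side. Covered base pairs, peak number and highest fold enrichment were taken per list with Python 3.11.15, NumPy 2.4.6 and pandas 2.3.3. Differences are on log2(bp + 500), with a 2-fold mark for single libraries and no test. RNAPII was compared by a two-sided exact permutation test over the 6 assignments of 4 libraries, except at IGFBP4. Gained regions are merged RNAPII regions with a peak in both E2 lists and in neither DMSO list. Summits were searched for motifs in 300 bp of the GRCh37 sequence. Named regions were, per gene, target and line, the strongest at and away from starts, with all gained regions, and the 3 most similar genes were taken per gene. Some genes named by these rules are not reported here. The steps were tested on simulated data. Members, lists and motifs were chosen with earlier results of these data known, and the stretches within IGFBP4 and IGF1R and the busiest or line-restricted regions after the maps were seen. Alternatives were other windows, thresholds, pseudocounts, overlaps and list lengths, each library left out, and the replicate number as a block.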

Additional observations from a re-analysis of the deposited data

Results flagged for a closer look

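In 3 cases a gene moved by 2-fold or more between treatments in one cell line and had a difference of opposite sign, of any size, in the other. The share of all genes with such a pair was not taken. In Ishikawa, 65.7% of the windows tested for JUN were higher by 2-fold or more under E2 and 0.0365% were lower. For RARA 29% were higher. JUN coverage at IGFBP4 had a log2 difference of 2.03 in Ishikawa and -0.83 in T-47D. With lists of equal length the Ishikawa value was 0.90, and within 10 kb of the gene both Ishikawa lists were at 0 bp. JUN coverage at IGFBP3 was -1.24 in Ishikawa but 0.95 in T-47D (its single E2 peak lay at IGFBP1). With lists of equal length that Ishikawa value was -1.78. RARA coverage at IGF1R had 1.13 in Ishikawa and -0.10 in T-47D. The T-47D value was a small change, from 282 bp under DMSO to 232 bp under E2, with 1 peak in each list. With lists of equal length both Ishikawa RARA lists were at 0 bp. Each treatment had 1 library here. Whether the lines differ was not tested.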

How the results depend on the processing

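Among the RNAPII differences, that of IGFBP4 kept its direction in every alternative run, between 1.84 (without DMSO replicate 2) and 4.11 (without DMSO replicate 1). IGFBP4 was chosen with a gained RNAPII region in these same libraries known. Its steady direction is therefore a description and no support for an E2 effect. For the other genes no test could pass a threshold in this design, so their p-values say nothing about stability. Within the gene body alone IGFBP2 was at -0.46, and with lists shortened to the shortest IRS1 was at -0.23 and IGF2 at -0.028. With a pseudocount of 100 bp IGFBP3 was at -1.65, and in the gene body alone IGF1R was at 1.05 and IGF2 at 0. Leaving out 1 library at a time, IGFBP2 and IGFBP5 ranged from -0.17 to 1.58, IGF1R from -0.13 to 1.97, IRS1 from -1.06 to 1.52, IGF2 from -0.32 to 0.78 and IGFBP3 from -1.47 (without DMSO replicate 2) to 0 (without DMSO replicate 1). The lowest value came without DMSO replicate 2 for IGFBP2, IGFBP5 and IRS1, and without E2 replicate 1 for IGF1R and IGF2. The 8 gained regions became 14 with lists shortened to the shortest, and ranged from 8 (without DMSO replicate 2) to 77 (without E2 replicate 2) with 1 library left out. The cause was not tested. Of 77 RNAPII differences recomputed under these alternatives, 65 had the sign given in the report, 10 the opposite sign and 2 were 0. With replicate number as a replicate block the means were by construction the same, such as 0.92 for IGF1R (exact sign-flip p = 0.500, the smallest that 2 pairs allow), and no call changed. Libraries of the same number deviated together (r = 0.713 over 17100 windows), but with 2 pairs they share only a number. Alternatives added after seeing the data were lists of equal length, 10 kb flanks and a -log10 q-value of at least 10 for single libraries, the IGFBP4 gained count under each alternative, and the regions by line without RNAPII. Of the single-library values and IGFBP4 counts, 30 stayed past 2-fold (counts: within 1.5 times) and 17 did not, among them the IGFBP4 count at 12 and 22 without E2 replicates 1 and 2. The peaks give no read depth, so an absent peak is not shown to be absent binding.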
